A study of Rattus norvegicus with 9 samples.

Results

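Chondroitin sulfate synthesis enzymes were followed as 10 genes of the deposited table of 34267, chosen by symbol: Xylt1, Xylt2, B3gat3, Chsy1, Chsy3, Chpf, Chst3, Chst11, Papss1 and Papss2. Each symbol had a single row, and all 10 passed the filter on low values. The cells were wild-type primary cultures of rat condylar cartilage progenitor cells, the cells of the jaw joint's cartilage that can divide and form new cartilage, with polyadenylated RNA sequenced in 9 libraries. The P9 group held cells cultured to passage 9, the study's model of replicative senescence. Cells at passage 3 placed under flow fluid shear stress made up the FFSS group, the study's model of mechanically induced degeneration, and untreated passage 3 cells made up P3, the control. Each group had 3 libraries. The labels say neither how many animals or cultures the libraries came from nor how strong or long the flow was, so each p-value measures only the spread between these libraries, which may be technical.

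Chondroitin sulfate is a long sulfated sugar chain carried by proteoglycans such as aggrecan, and its negative charge holds the water that lets cartilage bear load. A chain starts when xylose is placed on a serine of the core protein, and galactose and glucuronic acid then complete a short linkage region. Chondroitin synthases extend the chain with alternating N-acetylgalactosamine and glucuronic acid. Sulfotransferases add sulfate from the activated donor PAPS, which the PAPS synthases make from sulfate and ATP. Mutations in human XYLT1, CHSY1, CHST3 and PAPSS2 cause skeletal disorders.

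Between 13264930 and 15323790 fragments fell on genes in each library, so that 1 fragment on a gene of 1 kilobase was worth 0.0619 to 0.0733 FPKM (a fragment count per kilobase of gene, scaled for depth). FFSS replicate 1 lay nearer to P3 than the other FFSS libraries did: across genes its Pearson r was 0.936 to 0.945 with the P3 libraries, 0.915 with FFSS replicate 2 and 0.947 with FFSS replicate 3, while FFSS replicates 2 and 3 had an r of 0.969. Genes are not independent replicates, so these values only describe the libraries. Of 10 mesenchymal progenitor markers 9 passed the filter, with summed levels of 2254 to 2558 FPKM in P9, 2806 to 3014 FPKM in FFSS and 2352 to 2391 FPKM in P3. These sums were mostly Thy1 and Itgb1, and single markers went opposite ways. Mcam averaged 39.9 FPKM in P9, 6.26 FPKM in FFSS and 15.7 FPKM in P3, while Pdgfra averaged 9.59, 36.0 and 15.3 FPKM. Of 16 cartilage markers 9 passed, with summed levels of 788 to 820.1 FPKM in P9, 473 to 628 FPKM in FFSS and 955 to 1075 FPKM in P3. They did not move together: Acan averaged 561 FPKM in P9, 40.2 FPKM in FFSS and 128 FPKM in P3, Col11a1 averaged 234 FPKM in P9, 478 FPKM in FFSS and 857 FPKM in P3, and Sox9 averaged 6.46 FPKM in P9, 12.7 FPKM in FFSS and 4.52 FPKM in P3. Col2a1, the main cartilage collagen, did not exceed 0.191 FPKM in P9, 0.378 FPKM in FFSS and 1.06 FPKM in P3, and Matn1 was at 0 in every library. The 9 leukocyte markers in the table summed to 5.14 to 5.66 FPKM in P9, 42.2 to 106 FPKM in FFSS and 9.60 to 11.1 FPKM in P3, mostly Cd14, while Ptprc, which defines leukocytes, did not exceed 0.0400 FPKM. In FFSS replicates 1 to 3, Lyz2 stood at 0.0562, 5.36 and 2.94 FPKM, Csf1r at 0.0840, 3.17 and 2.08 FPKM and Cd68 at 2.16, 2.60 and 2.11 FPKM. In P3 these 3 genes did not exceed 0.305, 0.187 and 0.873 FPKM, and in P9 0, 0.218 and 0.848 FPKM. The 6 glial markers summed to 19.1 to 28.2 FPKM in P9, 65.0 to 89.99 FPKM in FFSS and 15.5 to 28.9 FPKM in P3, mostly S100b, which cartilage cells also express. Endothelial markers summed to at most 0.956 FPKM in any library, with Cdh5, Cldn5 and Emcn at 0. The 8 skeletal muscle markers summed to 44.2 to 51.2 FPKM in P9, 9.39 to 39.4 FPKM in FFSS and 8.68 to 21.1 FPKM in P3. These markers did not move together either. Acta1 averaged 38.7 FPKM in P9, 0.775 FPKM in FFSS and 7.96 FPKM in P3, and Myh1 4.13, 0.431 and 0.288 FPKM. Tnnt3 was highest under shear, averaging 4.06 FPKM in P9, 23.7 FPKM in FFSS and 4.49 FPKM in P3. The 7 epithelial markers summed to 1.32 to 2.13 FPKM in P9, 0.207 to 1.14 FPKM in FFSS and 0.243 to 0.558 FPKM in P3, with Krt5 and Krt19 at 0. The 3 erythroid markers in the table summed to at most 0.290 FPKM in any library, with Hba-a1 and Hbb at 0. The part of these marker levels in the results that follow was not tested. In bulk RNA, fewer cells of a type and less RNA per cell cannot be told apart.

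At passage 9, Xylt1, Chsy1 and Papss2 fell relative to passage 3, and none of the 10 enzymes passed the test as higher. Xylt1 showed the largest difference, at 0.187 times its P3 mean. Under shear stress, Chsy3 and Papss2 rose, to 2.40 and 1.98 times their P3 means, and none passed the test as lower. Chsy1 lay below P3 in every FFSS library but did not pass (limma, adjusted p = 0.0624). The calls of Chsy1 at passage 9 and of Papss2 in each model were each lost in 10 of 17 alternative settings of the analysis. Papss2 and Chsy3 stood above P3 under shear and below it at passage 9, a difference that, at passage 9, passed the test for Papss2 and not for Chsy3. With only the P9 and P3 libraries fitted by limma, Chsy3 passed there too (adjusted p = 0.0182). The main tests drew on the spread of all 9 libraries, FFSS included. Over the tested genes the median within-group SD of log2(FPKM + 1) was 0.175 in P9, 0.268 in FFSS and 0.11 in P3. The remaining genes, Xylt2, B3gat3, Chpf, Chst3, Chst11 and Papss1, passed the test in neither model. All tests used limma on log2(FPKM + 1) over 13059 genes, two-sided, with Benjamini-Hochberg adjustment and an adjusted p under 0.05. Fold changes on this scale come out smaller than the FPKM ratio where a gene is near 1 FPKM.

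**Figure D1:**
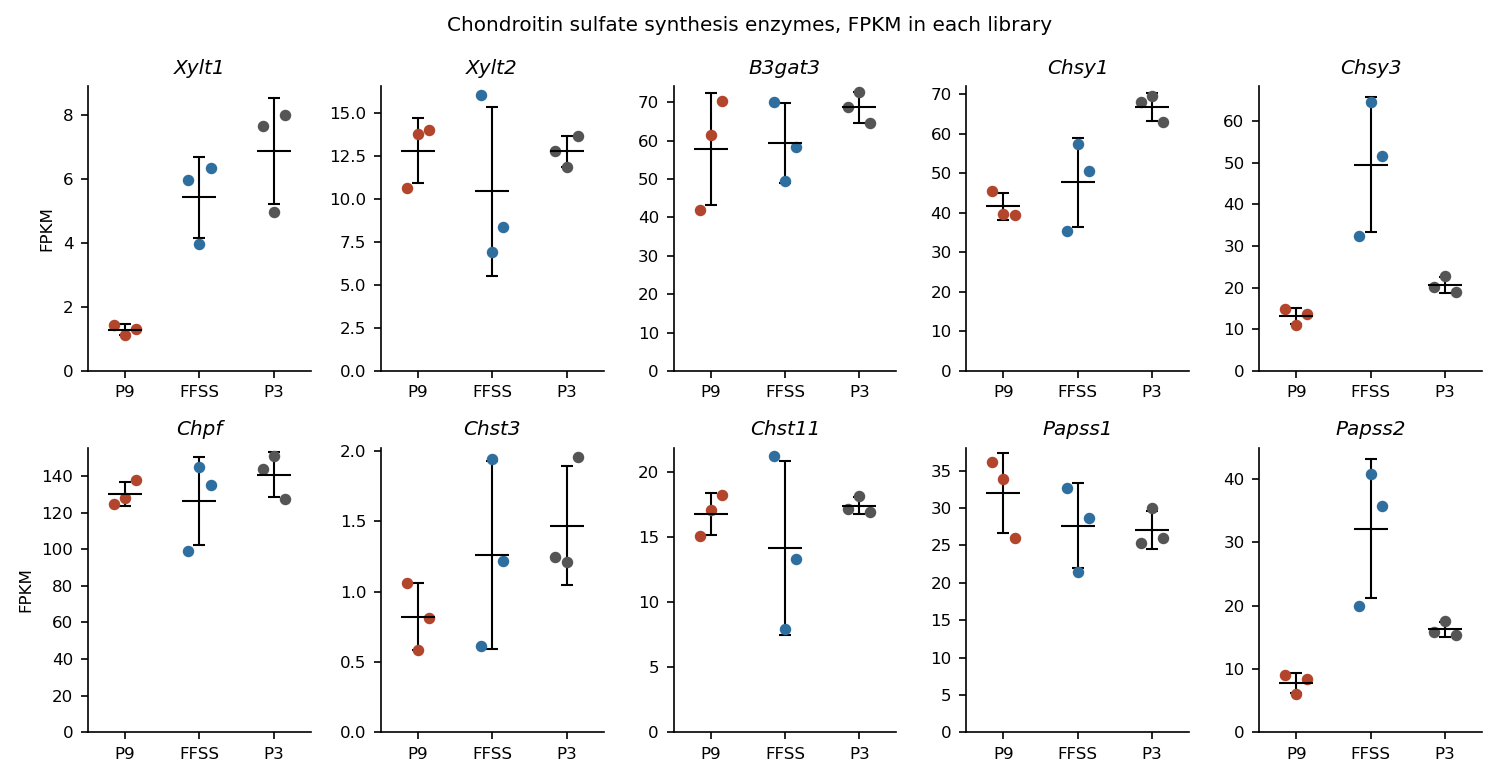
FPKM (vertical axis, linear, from 0) of each of the 10 enzymes in every library of P9, FFSS and P3 (horizontal axis). Points are libraries, and bars are the group mean and SD (n = 3); Xylt1 was lowest in P9, and Chsy3 and Papss2 were highest in FFSS.

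Among all tested genes, 580 of 13059 (4.44%) fell and 704 (5.39%) rose at passage 9, 9.83% in all, against 3 and 0 of the 10 enzymes. For 5 of the 10 enzymes the P9 libraries all lay below the P3 libraries, as they did for 19.1% of tested genes, and for no enzyme did they all lie above, as they did for 20.9% (40.1% in either direction). Under shear, 1483 genes (11.4%) rose and 1362 (10.4%) fell, 21.8% in all, so that 2 calls among 10 enzymes is near that background share. The FFSS libraries all lay above P3 for 2 enzymes and below for 1, against 20.1% and 22.3% of tested genes (42.4% in either direction). The median log2 fold change of the 10 enzymes was -0.36 at passage 9 and -0.19 under shear, against -0.00 and -0.01 over all tested genes. The count of 3 at passage 9 was 1 when any single P9 or P3 library or FFSS replicate 3 was left out. In those fits 4.59% to 8.19% of all tested genes were called at passage 9. The count of 2 under shear was 1 when any single P3 library, FFSS replicate 3 or P9 replicate 3 was left out. In those fits 9.12% to 19% of all tested genes were called under shear. The count under shear was 4 when FFSS replicate 1 was left out, with Xylt2 and Chst11 then called lower. Of all 12870 genes tested in that fit 39% were called.

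Levels per gene length spanned a wide range. By group mean, Chpf was highest in all 3 groups, B3gat3 next and Chst3 lowest. The library range of B3gat3 overlapped that of Chsy1 in P9, and those of Chsy3 and Chsy1 in FFSS. Chpf averaged 130.1 ± 6.73 FPKM in P9, 126 ± 24.0 FPKM in FFSS and 141 ± 12.2 FPKM in P3 (SD, n = 3 each). Chst3 averaged 0.821 ± 0.239 FPKM in P9, 1.26 ± 0.668 FPKM in FFSS and 1.47 ± 0.421 FPKM in P3. In P3 the order was Chpf, B3gat3, Chsy1, Papss1, Chsy3, Chst11, Papss2, Xylt2, Xylt1 and Chst3, and the library ranges of the neighbours B3gat3 and Chsy1, and of Chst11 and Papss2, overlapped. In FFSS, Chsy3 ranked 3 and Papss2 ranked 5, where their ranges overlapped those of Chsy1 and Papss1. In P9, Papss2 ranked 8, and its library range did not overlap that of Papss1.

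The chain starters are the xylosyltransferases, which transfer the first xylose to the core protein. Xylt1 (Rnor_6.0 chromosome 1, 187149453 to 187261632, plus strand) stood at 1.45, 1.11 and 1.30 FPKM in P9 replicates 1 to 3, at 5.98, 3.98 and 6.35 FPKM in the FFSS libraries, and at 7.68, 4.97 and 8.001 FPKM in the P3 libraries. Every P9 library lay below every library of FFSS and P3, and the FFSS and P3 libraries overlapped. At passage 9 Xylt1 fell by 1.77 on the log2 scale (95% confidence interval -2.24 to -1.29, adjusted p = 0.00122). Over the 17 alternative settings the log2 fold change ran from -2.40 to -1.66 and the adjusted p from 0.000828 to 0.0101. Under shear the log2 fold change was -0.29 (95% interval -0.76 to 0.18, adjusted p = 0.344). Xylt1 rested on 42 to 293 fragments per library.

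Xylt2, the second xylosyltransferase (chromosome 10, 82386005 to 82399485, minus strand), stood at 10.6, 13.8 and 14.0 FPKM in P9, 16.1, 6.93 and 8.35 FPKM in FFSS and 12.8, 11.9 and 13.7 FPKM in P3. Its P9 and P3 libraries overlapped, and its FFSS libraries lay on either side of P3, with replicate 1 above and replicates 2 and 3 below. The log2 fold change was -0.00 at passage 9 (95% interval -0.59 to 0.58, adjusted p = 0.998) and -0.35 under shear (95% interval -0.93 to 0.24, adjusted p = 0.359). Without FFSS replicate 1 it was -0.68 under shear (adjusted p = 0.00802). The ratio of Xylt2 to Xylt1 within a library was 7.34, 12.5 and 10.8 in P9, 2.68, 1.74 and 1.32 in FFSS and 1.67, 2.39 and 1.71 in P3. It was higher in every P9 library than in any other. The difference of mean log2 ratios was 2.39 between P9 and P3 (exact permutation test, two-sided, p = 0.1, the smallest that 3 against 3 allows; adjusted p = 0.2 over 12 ratio comparisons). It was -0.05 between FFSS and P3 (exact permutation test, p = 1). The FPKM of Xylt1 and Xylt2 together averaged 14.1 ± 1.78 in P9, 15.9 ± 5.66 in FFSS and 19.7 ± 2.53 in P3 (SD, n = 3 each).

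B3gat3, the glucuronosyltransferase that completes the linkage region (chromosome 1, 225120061 to 225126579, plus strand), stood at 41.8, 61.4 and 70.3 FPKM in P9, 70.2, 49.4 and 58.5 FPKM in FFSS and 68.7, 72.7 and 64.7 FPKM in P3. Its groups overlapped. The log2 fold change was -0.28 at passage 9 (95% interval -0.72 to 0.17, adjusted p = 0.461) and -0.22 under shear (95% interval -0.67 to 0.23, adjusted p = 0.449).

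The chain is polymerised by chondroitin synthases, of which Chsy1, Chsy3 and Chpf were followed. Chsy1 (chromosome 1, 127010588 to 127071570, plus strand), a bifunctional enzyme that adds both sugars, stood at 45.7, 39.7 and 39.6 FPKM in P9, 35.3, 57.4 and 50.6 FPKM in FFSS and 68.1, 69.6 and 62.9 FPKM in P3. Every P9 and every FFSS library lay below the P3 libraries. Chsy1 fell by 0.67 on the log2 scale at passage 9 (95% interval -1.05 to -0.29, adjusted p = 0.0377). Chsy1 did not pass without P9 replicate 1 (adjusted p = 0.0689), 2 (0.136) or 3 (0.112), P3 replicate 1 (0.133), 2 (0.121) or 3 (0.0985), or FFSS replicate 3 (0.0595), and without a filter on low values (0.0606). Under shear the log2 fold change was -0.50 (95% interval -0.89 to -0.12, adjusted p = 0.0624), and it passed without FFSS replicate 2 (adjusted p = 0.0305) and with scaling by library totals (0.0457).

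Chsy3, a second bifunctional synthase (chromosome 18, 54243949 to 54496585, plus strand), stood at 14.96, 11.0 and 13.6 FPKM in P9, 32.5, 64.6 and 51.6 FPKM in FFSS and 20.1, 22.9 and 18.9 FPKM in P3. The 3 groups did not overlap: FFSS lay highest, P3 between and P9 lowest, and FFSS replicate 1 was the lowest of its group. Under shear Chsy3 rose by 1.17 on the log2 scale (95% interval 0.65 to 1.70, adjusted p = 0.00953), and over the 17 alternative settings this change ran from 0.96 to 1.44 with an adjusted p of 0.000367 to 0.0411. At passage 9 its log2 fold change was -0.62 (95% interval -1.14 to -0.09, adjusted p = 0.145). It passed there without FFSS replicate 1 (adjusted p = 0.0200) and with only the P9 and P3 libraries fitted (0.0182).

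The ratio of Chsy3 to Chsy1 within a library was 0.328, 0.277 and 0.344 in P9, 0.920, 1.13 and 1.02 in FFSS and 0.296, 0.328 and 0.301 in P3. Under shear the level of Chsy3 was close to that of Chsy1 in all 3 libraries, FFSS replicate 1 included, while the P9 and P3 libraries overlapped near 0.3. The difference of mean log2 ratios was 1.73 between FFSS and P3 (exact permutation test, two-sided, p = 0.1, adjusted p = 0.2) and 0.03 between P9 and P3 (exact permutation test, p = 0.9). The FPKM of the pair together averaged 54.8 ± 5.17 in P9, 97.3 ± 27.4 in FFSS and 87.5 ± 5.36 in P3 (SD, n = 3 each).

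Chpf, the chondroitin polymerizing factor that partners the synthases (chromosome 9, 82669204 to 82673898, minus strand), stood at 125, 128 and 138 FPKM in P9, 99.2, 145 and 135 FPKM in FFSS and 144, 151 and 127 FPKM in P3. Its groups overlapped. The log2 fold change was -0.11 at passage 9 (95% interval -0.45 to 0.23, adjusted p = 0.731) and -0.17 under shear (95% interval -0.51 to 0.17, adjusted p = 0.444).

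Of the sulfotransferases, Chst11 sulfates carbon 4 and Chst3 carbon 6 of N-acetylgalactosamine. Chst11 (chromosome 7, 26645422 to 26859716, minus strand) stood at 15.04, 17.1 and 18.2 FPKM in P9, 21.2, 7.96 and 13.3 FPKM in FFSS and 17.1, 18.1 and 16.9 FPKM in P3. Like Xylt2, it was above P3 in FFSS replicate 1 and below it in FFSS replicates 2 and 3. The log2 fold change was -0.05 at passage 9 (95% interval -0.67 to 0.57, adjusted p = 0.941) and -0.37 under shear (95% interval -0.99 to 0.24, adjusted p = 0.348), or -0.70 under shear without FFSS replicate 1 (adjusted p = 0.0192). Chst3 (chromosome 20, 29731816 to 29738506, minus strand) stood at 1.07, 0.588 and 0.811 FPKM in P9, 0.612, 1.95 and 1.22 FPKM in FFSS and 1.25, 1.21 and 1.96 FPKM in P3. Its P9 libraries all lay below P3, and its FFSS libraries overlapped both other groups. The log2 fold change of Chst3 was -0.44 at passage 9 (95% interval -0.99 to 0.12, adjusted p = 0.344) and -0.16 under shear (95% interval -0.72 to 0.40, adjusted p = 0.674), on 50 to 161 fragments per library.

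The ratio of Chst3 to Chst11 was 0.0708, 0.0345 and 0.0445 in P9, 0.0289, 0.245 and 0.0916 in FFSS and 0.0729, 0.0668 and 0.116 in P3. Chst11 was therefore above Chst3 in every library. The difference of mean log2 ratios was -0.79 between P9 and P3 (exact permutation test, two-sided, p = 0.2) and 0.07 between FFSS and P3 (exact permutation test, p = 1).

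The sulfate donor is made by Papss1 and Papss2, of which Papss2 is the form linked to cartilage growth in mouse and human. Papss2 (chromosome 1, 251145253 to 251230715, plus strand) stood at 9.11, 6.08 and 8.35 FPKM in P9, 19.9, 40.8 and 35.8 FPKM in FFSS and 15.8, 17.7 and 15.4 FPKM in P3. As with Chsy3, the 3 groups did not overlap, with FFSS highest and P9 lowest, and FFSS replicate 1 stood just above P3. Papss2 fell by 0.98 on the log2 scale at passage 9 (95% interval -1.55 to -0.41, adjusted p = 0.0401). It rose by 0.88 under shear (95% interval 0.32 to 1.45, adjusted p = 0.0360). The call at passage 9 was lost without P9 replicate 1 (adjusted p = 0.0753), 2 (0.153) or 3 (0.0884), P3 replicate 1 (0.118), 2 (0.127) or 3 (0.111), or FFSS replicate 3 (0.0581). The call under shear was lost without FFSS replicate 2 (adjusted p = 0.0987) or 3 (0.120), P3 replicate 1 (0.106), 2 (0.0821) or 3 (0.105), or P9 replicate 3 (0.0532). Without a filter on low values the adjusted p was 0.0751 at passage 9 and 0.0668 under shear, and with only the FFSS and P3 libraries fitted it was 0.0625 under shear.

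Papss1, the other PAPS synthase (chromosome 2, 236605695 to 236680772, plus strand), stood at 36.1, 33.9 and 26.0 FPKM in P9, 32.6, 21.5 and 28.7 FPKM in FFSS and 25.3, 30.0 and 25.9 FPKM in P3. Its groups overlapped, and the log2 fold change was 0.22 at passage 9 (95% interval -0.18 to 0.63, adjusted p = 0.516) and 0.01 under shear (95% interval -0.39 to 0.41, adjusted p = 0.976). The ratio of Papss2 to Papss1 was 0.252, 0.179 and 0.322 in P9, 0.609, 1.90 and 1.25 in FFSS and 0.624, 0.589 and 0.593 in P3. Every P9 library lay below P3, and FFSS replicates 2 and 3 lay above P3 while replicate 1 lay within it. The difference of mean log2 ratios was -1.30 between P9 and P3 (exact permutation test, two-sided, p = 0.1, adjusted p = 0.2) and 0.91 between FFSS and P3 (exact permutation test, p = 0.2). The FPKM of the pair together averaged 39.8 ± 5.43 in P9, 59.8 ± 6.36 in FFSS and 43.4 ± 3.71 in P3 (SD, n = 3 each).

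**Figure D2:**
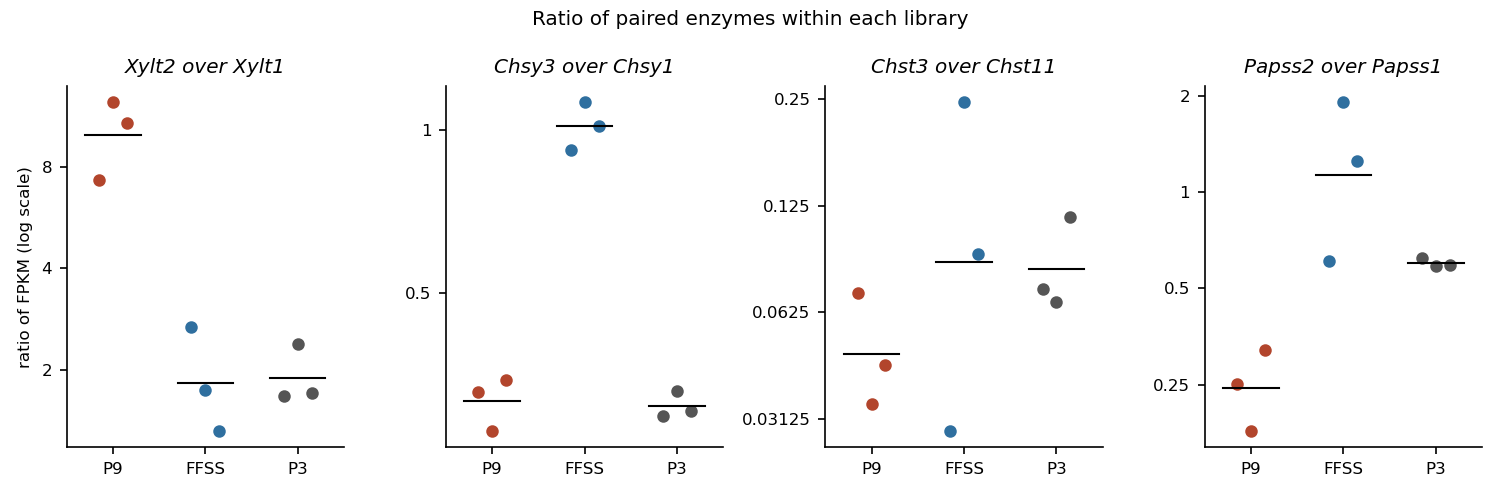
Ratio of FPKM of paired enzymes within each library (vertical axis, log scale) in P9, FFSS and P3 (horizontal axis). Points are libraries and lines are geometric means (n = 3); Xylt2 over Xylt1 was highest in P9, at 7.34 to 12.5, and Chsy3 over Chsy1 was highest in FFSS, at 0.920 to 1.13.

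The direct comparison of the models, P9 minus FFSS, tests whether their effects differ, since both are set against the same P3 libraries. Papss2, Chsy3 and Xylt1 were lower in P9 than in FFSS, and no enzyme was higher. Among all tested genes 1997 (15.3%) were lower and 2103 (16.1%) higher in P9, 31.4% in all, so 3 calls among 10 is near that background share. The log2 difference was -1.86 for Papss2 (95% interval -2.43 to -1.30, adjusted p = 0.000937), -1.79 for Chsy3 (95% interval -2.31 to -1.27, adjusted p = 0.000751) and -1.48 for Xylt1 (95% interval -1.95 to -1.01, adjusted p = 0.00118). These calls were kept under all 17 alternative settings, in which the highest adjusted p was 0.00623 for Papss2, 0.00524 for Chsy3 and 0.00754 for Xylt1. For these 3 enzymes every P9 library lay below every FFSS library, as it did for 20% of tested genes, and for no enzyme was every P9 library above, as for 22.2% (42.2% in either direction). The log2 difference of the other enzymes ran from -0.28 for Chst3 to 0.34 for Xylt2. Without FFSS replicate 1, Xylt2 (0.67, adjusted p = 0.00639) and Chst11 (0.65, 0.0221) were also called higher in P9 and Chsy1 (-0.37, 0.0263) lower, 6 calls in all, while 45.7% of all 12870 genes tested in that fit were called.

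**Figure D3:**
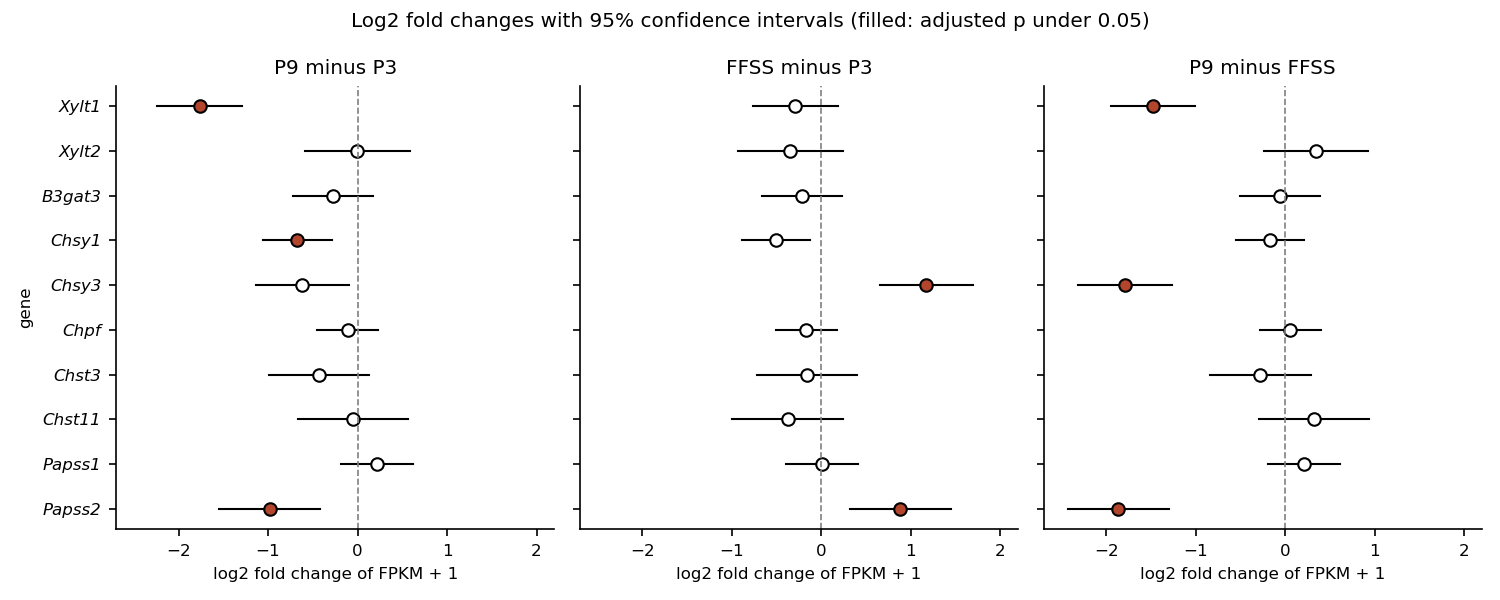
Log2 fold change of FPKM + 1 (horizontal axis) of the 10 enzymes (vertical axis) in panels for P9 and for FFSS, each against P3, and for P9 against FFSS. Points are limma estimates with 95% confidence intervals, filled where the adjusted p was under 0.05; Papss2 was at -0.98 in P9 and 0.88 in FFSS, each against P3.

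Papss2 and Chsy3 ranked the 9 libraries in the same order, FFSS replicates 2, 3 and 1, then P3 replicates 2, 1 and 3, then P9 replicates 1, 3 and 2. Papss2 had the widest range of group means among the 10 enzymes, and its 9 values were compared with those of the other 12387 tested rows with a symbol, as the root mean square difference of log2(FPKM + 1) after each gene's mean was removed. Chsy3 was the second nearest, at 0.17. Outside the pathway lists the nearest were Gbp5 (0.12), an interferon-inducible guanylate-binding protein, Ninj1 (0.17), a cell surface protein that acts in membrane rupture, and A2m (0.17), a protease inhibitor. Ninj1 stood at 44.7, 44.0 and 41.4 FPKM in P9, 88.1, 201 and 160 FPKM in FFSS and 86.0, 88.1 and 88.2 FPKM in P3. Gbp5 did not exceed 0.920 FPKM in P9, 8.04 FPKM in FFSS and 2.62 FPKM in P3. A2m stood at 0.0481, 0 and 0 FPKM in P9, 1.45, 4.40 and 2.96 FPKM in FFSS and 1.37, 0.920 and 1.05 FPKM in P3. For these low genes the added 1 shrinks differences, so nearness on this scale does not mean like ratios of FPKM. The 9 libraries share their depth scaling and fall into 3 groups, so these distances describe the pattern and carry no test.

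The 250 bases before the annotated start were available for all 10 enzymes (RefSeq, GRCr8), and 3 are shown: those of Chsy3 and Papss2, whose values followed each other, and of Chsy1, the synthase that did not rise with them. Capitals mark matches, on either strand, to the GC box GGGCGG, the TATA box TATAAA, the AP-1 element TGANTCA and the shear stress element GAGACC. Chsy3 lies at chr18:54842010-54842259, Papss2 at chr1:239867463-239867712 and Chsy1 at chr1:129099838-129100087, all on the plus strand.
Chsy3: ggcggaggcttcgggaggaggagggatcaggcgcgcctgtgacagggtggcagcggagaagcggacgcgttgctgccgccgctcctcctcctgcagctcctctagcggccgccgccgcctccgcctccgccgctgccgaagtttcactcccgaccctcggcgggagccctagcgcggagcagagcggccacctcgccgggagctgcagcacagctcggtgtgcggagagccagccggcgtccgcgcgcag
Papss2: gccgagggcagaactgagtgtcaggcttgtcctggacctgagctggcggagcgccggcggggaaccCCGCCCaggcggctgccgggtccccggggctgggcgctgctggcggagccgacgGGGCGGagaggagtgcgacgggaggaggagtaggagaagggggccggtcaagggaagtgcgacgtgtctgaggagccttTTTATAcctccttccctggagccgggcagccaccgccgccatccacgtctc
Chsy1: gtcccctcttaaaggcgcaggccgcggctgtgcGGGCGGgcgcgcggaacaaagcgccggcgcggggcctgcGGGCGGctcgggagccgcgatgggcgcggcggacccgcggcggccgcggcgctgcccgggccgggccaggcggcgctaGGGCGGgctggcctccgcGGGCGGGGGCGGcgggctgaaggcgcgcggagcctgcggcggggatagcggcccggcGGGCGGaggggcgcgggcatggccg
These windows held G or C at 74.4% of bases for Chsy3, 70.8% for Papss2 and 84.8% for Chsy1, against a median of 52% over 27457 windows. The Chsy3 window had no match to the 4 motifs. The Papss2 window had 2 GC boxes and 1 TATA box, 51 bases before the start on the minus strand, and the Chsy1 window had 6 GC boxes, of which 2 adjoin without overlap. Among all windows 32.4% had a GC box, 13.1% a TATA box, 13.8% a shear stress element and 6.36% an AP-1 element. Of the other enzymes, Chpf and Papss1 each had 1 shear stress element, and no enzyme had an AP-1 element. A match is a description of letters in this window.

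The rest of the chondroitin pathway was taken from lists of linkage, polymerising and sulfating enzymes and of genes for sulfate donor and UDP-sugar supply. Of the 28 tested genes on these lists that are not among the 10 enzymes, 2 fell and 0 rose at passage 9, and 4 rose and 1 fell under shear. Of all tested genes 4.44% fell and 5.39% rose at passage 9, and 11.4% rose and 10.4% fell under shear, and the counts of this list were near those shares. Their median log2 fold change was -0.12 at passage 9 and 0.11 under shear, against -0.00 and -0.01 over all tested genes. At passage 9, Uap1, which makes the last step to UDP-N-acetylglucosamine, averaged 26.7 ± 5.08 FPKM in P9 and 55.3 ± 11.5 FPKM in P3 (SD, n = 3 each; log2 fold change -1.02, adjusted p = 0.0132). Its call was lost without P9 replicate 2 (adjusted p = 0.0614) or 3 (0.0553), or P3 replicate 1 (0.0559) or 3 (0.0594). B4galt7, which adds the first galactose of the linkage region, averaged 20.5 ± 1.98 FPKM in P9 and 30.4 ± 1.07 FPKM in P3 (-0.55 on the log2 scale, adjusted p = 0.0498). B4galt7 was no longer called without any single P9 or P3 library (adjusted p = 0.0826 to 0.165) or FFSS replicate 3 (0.0760), nor without a filter (0.0700), with scaling by library totals (0.0558), with voom (0.0536) or with the replicate block (0.0634).

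Under shear the largest change among the genes of these lists was that of Csgalnact1, which adds the first N-acetylgalactosamine and so commits a chain to chondroitin. It stood at 31.2, 23.9 and 26.1 FPKM in FFSS and 4.06, 3.07 and 5.64 FPKM in P3, with no overlap, and at 3.17, 3.301 and 3.15 FPKM in P9. Its log2 fold change under shear was 2.44 (adjusted p = 0.000147), and it did not exceed an adjusted p of 0.00280 in the alternatives. FFSS replicate 1 was the highest library for Csgalnact1, unlike for Chsy3 and Papss2. Chst12, a further 4-O-sulfotransferase, averaged 53.8 ± 8.92 FPKM in FFSS and 26.7 ± 1.80 FPKM in P3 (SD, n = 3 each; log2 fold change 0.97, adjusted p = 0.00593). Dse, the epimerase that turns chondroitin into dermatan sulfate, averaged 82.9 ± 19.1 FPKM in FFSS and 46.8 ± 2.195 FPKM in P3 (log2 fold change 0.78, adjusted p = 0.0153). The call of Dse was lost without FFSS replicate 3 (adjusted p = 0.0587) or P3 replicate 1 (0.0575) or 2 (0.0595). Uxs1, which makes the UDP-xylose used by the xylosyltransferases, averaged 93.6 ± 4.45 FPKM in FFSS and 66.1 ± 7.45 FPKM in P3 (log2 fold change 0.50, adjusted p = 0.0182). It did not pass when P3 replicate 1 (adjusted p = 0.0642) or 2 (0.0735) was left out. Gfpt1, the entry enzyme of amino sugar synthesis, averaged 16.1 ± 0.500 FPKM in FFSS and 24.1 ± 1.68 FPKM in P3, and fell by 0.55 on the log2 scale (adjusted p = 0.00745).

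**Figure D4:**
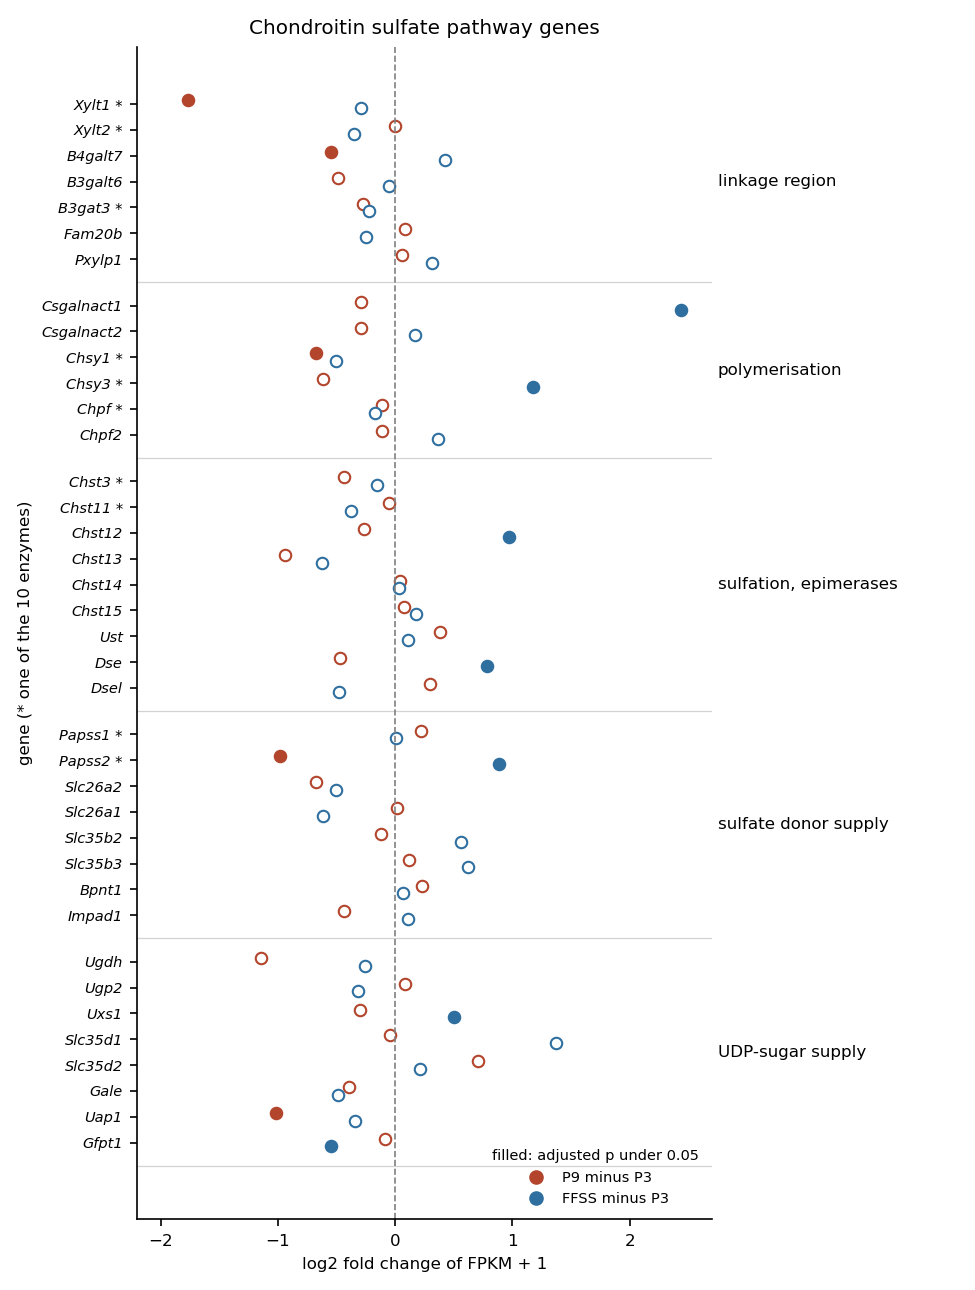
Log2 fold change of FPKM + 1 (horizontal axis) of the tested genes of the chondroitin sulfate pathway (vertical axis, grouped by step), for P9 minus P3 and FFSS minus P3. Filled points passed an adjusted p under 0.05; Csgalnact1, at 2.44, lay farthest to the right in FFSS, and Xylt1, at -1.77, farthest to the left in P9.

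Heparan sulfate chains share the linkage region with chondroitin sulfate. Of 16 tested genes of that branch, 3 rose and 2 fell at passage 9, and 1 rose and 2 fell under shear, against 9.83% of all tested genes called at passage 9 and 21.8% under shear. Hs6st2, a heparan 6-O-sulfotransferase, averaged 17.8 ± 2.84 FPKM in P9 and 1.57 ± 0.709 FPKM in P3 (SD, n = 3 each; log2 fold change 2.89, adjusted p = 0.000494). Hs6st3 (1.27, adjusted p = 0.00382) and Hs2st1 (0.90, 0.0115) also rose, though Hs2st1 was not called when P9 replicate 2 (adjusted p = 0.0540) or P3 replicate 3 (0.0541) was left out. Hs6st3 stood at 1.56, 1.64 and 2.32 FPKM in P9 and did not exceed 0.586 FPKM in FFSS and 0.227 FPKM in P3. It rested on 3 to 60 fragments per library and passed the filter only through P9, the group in which it was high. The call of Hs6st3 could be recomputed in only 13 alternative settings, and was kept in those. Glce, the epimerase of heparan sulfate, fell in each model, averaging 10.7 ± 1.52 FPKM in P9, 12.0 ± 1.09 FPKM in FFSS and 20.5 ± 0.154 FPKM in P3 (log2 fold change -0.89 and -0.73 against P3, adjusted p = 0.00263 and 0.00582). Under shear Ndst2, an N-deacetylase and N-sulfotransferase, rose by 1.32 on the log2 scale (adjusted p = 0.00583), and Extl3, which starts heparan sulfate chains, fell by 0.68 (adjusted p = 0.0101). Ndst2 stood at 2.05, 2.85 and 3.01 FPKM in FFSS and did not exceed 0.384 FPKM in P9 and 0.891 FPKM in P3. On 5 to 153 fragments per library, Ndst2 passed the filter only through FFSS, the group in which it was high. The call of Ndst2, too, could be recomputed in only 13 alternative settings, and was kept in those. Of 5 tested genes of the keratan sulfate branch, the sulfotransferase Chst1 fell at passage 9 (log2 fold change -1.23, adjusted p = 0.00198), and no other change passed in either model. Chst1 stood at 0.217, 0.0833 and 0.157 FPKM in P9 and 1.62, 1.54 and 1.95 FPKM in P3. It rested on 3 to 68 fragments per library. Outside P3 it reached 1 FPKM only in FFSS replicate 2, so it passed the filter through P3, the group in which it was high. Its call could be recomputed in only 16 alternative settings, and was kept in those.

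Of 14 tested genes of glycosaminoglycan breakdown, 5 rose and 1 fell under shear, and 0 rose and 1 fell at passage 9, against 11.4% and 10.4% of all tested genes under shear and 5.39% and 4.44% at passage 9. Hyal2, a hyaluronidase, averaged 30.9 ± 4.83 FPKM in FFSS and 14.7 ± 0.969 FPKM in P3 (SD, n = 3 each; log2 fold change 1.01, adjusted p = 0.00194). Hexa, a lysosomal hexosaminidase subunit (0.69, 0.00582), and Cemip2 (0.64, 0.0145) rose too, and Sulf2, which removes sulfate from heparan sulfate, fell by 1.05 (adjusted p = 0.00246). The call of Cemip2 was lost without FFSS replicate 3 (adjusted p = 0.0560) or P3 replicate 1 (0.0590) or 2 (0.0614). At passage 9 Cemip, which takes part in hyaluronan breakdown, averaged 44.8 ± 12.7 FPKM in P9 and 167 ± 17.5 FPKM in P3 (log2 fold change -1.90, adjusted p = 0.00368).

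The core proteins carry the chondroitin and dermatan sulfate chains. Of 10 tested, 1 rose and 1 fell at passage 9, and 2 rose and 2 fell under shear, against 9.83% of all tested genes called at passage 9 and 21.8% under shear. Acan, aggrecan, stood at 609, 576 and 499 FPKM in P9, 29.3, 48.2 and 43.2 FPKM in FFSS and 128, 135 and 122 FPKM in P3. It rose at passage 9 (log2 fold change 2.12, adjusted p = 0.000288) and fell by 1.68 on the log2 scale under shear (adjusted p = 0.000827). Dcn, decorin, stood at 1.06, 1.51 and 3.82 FPKM in P9, 250.045, 47.7 and 116 FPKM in FFSS and 21.4, 7.21 and 31.5 FPKM in P3 (log2 fold change -2.63 at passage 9, adjusted p = 0.0376, and 2.63 under shear, adjusted p = 0.0231). The call of Dcn at passage 9 was lost without P9 replicate 1 (adjusted p = 0.133), 2 (0.132) or 3 (0.0558), P3 replicate 1 (0.133) or 3 (0.142), or FFSS replicate 3 (0.0624), without a filter (0.0790) and with voom (0.112). Its call under shear was lost without FFSS replicate 3 (adjusted p = 0.0715) or P3 replicate 1 (0.0596) or 2 (0.0780), without a filter (0.0508) and with only the FFSS and P3 libraries fitted (0.0505). Cspg4, a transmembrane proteoglycan, averaged 24.1 ± 2.51 FPKM in FFSS and 77.0 ± 2.94 FPKM in P3 (SD, n = 3 each), and fell by 1.64 on the log2 scale (adjusted p = 8.5e-05). Tgfbr3, betaglycan, rose by 1.32 under shear (adjusted p = 0.00293).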

How the data were processed

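Polyadenylated RNA of 9 libraries was measured. The deposited values are FPKM in 1 table, with the length of each gene in bases. HISAT2 2.0.5, featureCounts 1.5.0-p3 and the build Rnor_6.0 are named per the submitters' processing notes; settings, strandedness and the annotation release are not given in the sources used here, so reads of overlapping or antisense genes may not be separated. In each library the product of FPKM and length came in whole steps of 1 size (100% of values within 0.01 of a step), which gave the fragments behind each value and showed a scaling by median-of-ratios size factors. Limits from fragments cover counting error only, and 0 fragments still allow 3.

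The filter asked for 1 FPKM or more in 3 or more libraries. The linear model of log2(FPKM + 1) had a mean for each group, took in all 9 libraries and used limma 3.58.1 (R 4.3.3, trend on), with 6 residual and 2.93 prior degrees of freedom. Ratios of paired enzymes used exact permutation tests. Python 3.11.15, NumPy 2.4.6, pandas 2.3.3 and matplotlib 3.10.9 were used. Promoter letters were matched by symbol for 10 of 10 enzymes; the GRCr8 coordinates apply to these windows only.

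The 10 enzymes and the gene lists were chosen with earlier results of these data known. Named were all 10 enzymes, every called gene of the 5 chondroitin lists, up to 4 called genes of each other list by adjusted p, and the 3 unlisted genes nearest to Papss2. Alternatives were a pseudocount of 0.1, no filter, a filter of 5 FPKM, scaling by library totals, a minimum log2 fold of 1, voom on fragments, only the groups compared, the replicate number as a block, and leaving out each library.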

Additional observations from a re-analysis of the deposited data

Results flagged for a closer look

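The effects of passage and of shear differed for 3 of the 10 enzymes, by the direct limma contrast of P9 with FFSS, in which 31.4% of all tested genes were called, so the count is not particular to the enzymes. The log2 difference was -1.86 for Papss2, -1.79 for Chsy3 and -1.48 for Xylt1, each lower in all 3 P9 libraries than in any FFSS library. For Papss2 the called changes against P3 had opposite signs, -0.98 in P9 and 0.88 in FFSS. For Chsy3 the change against P3 was -0.62 in P9, which did not pass, and 1.17 in FFSS. For Xylt1 it was -1.77 in P9 and -0.29 in FFSS, which did not pass. Groups of 3 libraries were not searched for single outlying libraries.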

How the results depend on the processing

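Of the 8 calls among the 10 enzymes, 5 were kept under every alternative: Xylt1 at passage 9, Chsy3 under shear, and Xylt1, Chsy3 and Papss2 between P9 and FFSS. Over 940 recomputed values of named genes, 839 kept direction and call, 79 lost the call, 9 gained it and 13 changed sign, none of the last in a called value. At passage 9, 1 enzyme in place of 3 was called without a filter and with the replicate block. The same held with a log2 fold of at least 1. Of all tested genes, 5.41%, 7.52% and 4.95% were called in these 3 settings. The count at passage 9 was 4 with only the 2 groups compared (19.9%), and 1 to 4 without single libraries (4.59% to 17.3%). The enzymes called under shear numbered 1 in place of 2 in the same 3 settings (10.8%, 17.3% and 7.98%). The count under shear was also 1 with only the 2 groups compared (16.8%), and 3 with scaling by library totals (21.3%). It was 1 to 4 without single libraries (9.12% to 39%). The enzymes called between P9 and FFSS numbered 3 to 6, with 20.1% to 45.7% of all tested genes called without single libraries. Of all genes, 1284 were called at passage 9, 2466 with only the 2 groups compared and 647 with a log2 fold of at least 1, and 589 to 2228 without single libraries. Under shear 2845 were called, 1042 with that fold, and 1178 to 5022 without single libraries. Between P9 and FFSS 4100 were called, 2537 with only the 2 groups, 1723 with that fold, and 2566 to 5876 without single libraries. Among the fits without single libraries, each highest count of all genes came without FFSS replicate 1. The lowest of those fits came without P9 replicate 2 at passage 9, P3 replicate 1 under shear and FFSS replicate 3 between P9 and FFSS. The cause of these shifts was not tested, beyond the fewer libraries fitted.

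Replicate numbers did not pair the libraries: deviations from the group means correlated at -0.04 to 0.03 across genes for the 9 pairs with the same number, under the 0.1 set for pairing. With the replicate block, Chsy1 (adjusted p = 0.0761) and Papss2 (0.0780) lost their calls at passage 9, and Papss2 (0.0628) under shear; the block leaves fewer residual degrees of freedom.

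Some log2 values, none of them called in all libraries, changed sign when single libraries were left out. Between P9 and FFSS, B3gat3 ran from -0.21 to 0.16, Chpf from -0.10 to 0.17 and Chst11 from -0.0072 to 0.65. At passage 9, Chst11 ran from -0.11 to 0.021 and Xylt2 from -0.068 to 0.12, with 0.043 for Xylt2 under scaling by library totals. Under shear, Chst3 ran from -0.37 to 0.063 and Papss1 from -0.12 to 0.17. The log2 ratio of Chsy3 to Chsy1 at passage 9 ran from -0.033 to 0.12; under shear that of Chst3 to Chst11 ran from -0.68 to 0.86 and that of Xylt2 to Xylt1 from -0.33 to 0.19. The ratios cannot pass an exact test with 3 against 3, and depth limits Chst3 and Xylt1 most.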
